A study of Mus musculus with 60 samples.

Results

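The intestine profile described here rests on 7 arrays of a series of 60. They were chosen on their labels and 1 measured value: of the 8 arrays labelled intestine or small intestine, those with the probe set of Fut9, a fucosyltransferase of neurons and kidney, below 6 on the log2 scale were kept. The other tissues are brain, kidney, lymph node, mammary gland, testes, thymus and thyroid, with 49 of 52 arrays kept after brain arrays with Fut9 below 6 and thymus arrays with Prol1, a secreted proline-rich protein gene, above 8 were left out. Total RNA was hybridised to an Affymetrix array custom-made for glycan genes, and a value is a log2 level per probe set made by robust multi-array averaging (RMA). Of 963 probe sets with a gene symbol, 1 was taken for each of 909 genes.

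The intestine arrays come from 2 mice labelled knockout of St6galnac2 (St6galnac2 -/-), 2 wild-type mice of that line (+/+) and 3 wild-type C57 mice whose tissue is labelled small intestine. The array of another wild-type mouse of the line, animal 9099, was left out by the rule. The other tissues were set against them with all lines and genotypes pooled. Brain held St6galnac2 knockout, St6galnac2 wild-type and C57 mice, and thyroid and lymph node held St6galnac2 knockout and wild-type mice. Kidney, mammary gland, testes and thymus held double knockout mice of B4galnt1 and B4galnt2 and their wild type. The kept thymus arrays were all of double knockout mice but for that of wild-type mouse N9700. Mammary gland arrays came from mice titled male as well as female. Ages, the segment of intestine and the design of the alleles are not given in the sources used here, and the sex of the C57 mice is labelled unknown. In the St6galnac2 line the titles give 1 male and 1 female intestine for each genotype among the kept arrays. Whole tissue was used, so fewer cells of a type and less RNA per cell cannot be told apart.

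The small intestine is lined by absorptive enterocytes, goblet cells that secrete mucin, Paneth cells that secrete antibacterial proteins, and scattered endocrine cells. Its surface is coated with glycoproteins whose chains are built stepwise in the Golgi: a GalNAc transferase starts an O-linked chain on serine or threonine, core enzymes branch and extend it, and fucosyl-, sialyl- and sulfotransferases cap it. Lectins read such chains, and chemokines of the epithelium draw lymphocytes into the mucosa.

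The arrays that the rule left out stood apart over all genes. With each probe set centred on the average of its tissues, the array labelled intestine of animal 9099 correlated at -0.27 with the other intestine arrays and at 0.94 with brain, and the first brain array of the same animal correlated at -0.27 with brain and at 0.96 with intestine. The thymus arrays left out correlated with thymus at 0.03 (animal N3740) and 0.05 (animal N3738). The 7 kept intestine arrays correlated at between 0.81, on the array of C57 mouse GDWTM3, and 0.95 with their tissue. Fut9 lay between 2.93 and 3.19 on the 7 kept intestine arrays and at 9.74 on the array left out. Among brain arrays it was 3.21 on the array left out and 8.64 on the lowest one kept. Prol1 was 13.41 and 13.51 on the left-out thymus arrays and at most 2.61 on those kept. These values chose the arrays and are given as a description only.

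Because the kept arrays were chosen on measured values, tests were run on all arrays as labelled, with animal 9099 in the groups its labels give, and the differences over the kept arrays are described beside them. Where counts from a fit on the kept arrays are given, they are an alternative to the labelled fit that follows from the choice of arrays, and they support nothing. Each test set the intestine mean against the mean of the other 7 tissue means in limma, and a probe set was called at a Benjamini-Hochberg adjusted p under 0.05 with a difference of at least 1 on the log2 scale. Of 963 probe sets, 111 (11.5%) were called higher in intestine and 73 (7.58%) lower. A stricter test asked for intestine above every other tissue by at least 1, and called 48 probe sets (4.98%). None was called below every other tissue (0 of 963, 0%, in limma), with 11 at an unadjusted p under 0.05. Counted by gene, 106 of 909 were called higher (11.7%), 66 lower (7.26%) and 44 above every other tissue, and the median difference over all genes was -0.16 on the kept arrays as well as on the labelled ones. Calls in the gene lists described below are to be read beside these shares. Each list counts only its members with a named probe set, and listed genes without one are not covered.

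On the kept arrays, every intestine array lay above every array of the other tissues in 45 of 963 probe sets (4.67%), and below every one in 1 (0.104%), a probe set of Ust. The arrays chosen fix these counts, which fall to 0 and 0 with the 4 left-out arrays put back. Of the 106 genes called higher, 88 had their highest tissue mean in intestine, and kidney was highest in 6 and brain in 5. Of the 44 genes called above every tissue, testes came second in 11, mammary gland in 10 and lymph node in 8. The genes that fell were not mostly at their lowest in intestine: of 66 called lower, 30 had their lowest tissue mean there and 18 had it in brain.

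**Figure D1:**
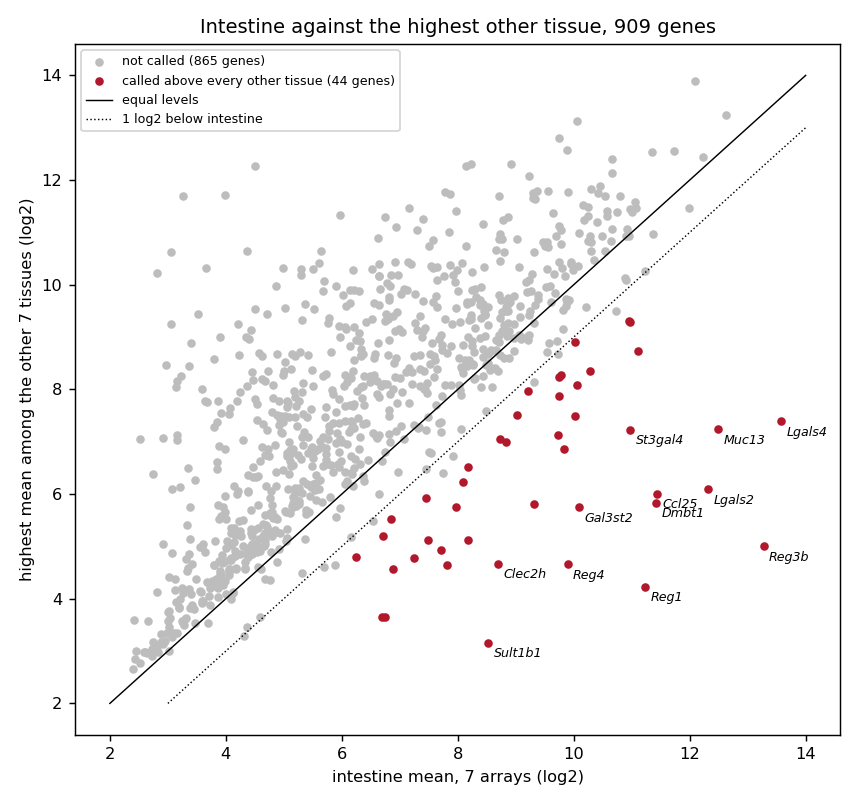
Each point is 1 of 909 genes, with its mean log2 level over the 7 kept intestine arrays on the x axis and the highest mean among the other 7 tissues on the y axis. The 44 genes called above every other tissue are red, the solid line marks equal levels and the dotted line a level 1 log2 lower, and Reg3b lies farthest from the solid line.

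The markers named for intestine were high on the kept intestine arrays. They were picked with results of these data known, so this does not check the label. Reg3b, an antibacterial C-type lectin of the epithelium, was at 12.47, 13.34 and 13.91 (lowest, median and highest of 7 kept intestine arrays), against 4.26 to 5.59 over the 49 other arrays. Lgals4, a galectin of the enterocyte brush border, was at 13.42, 13.59 and 13.73 in intestine, against 5.92 to 7.83 elsewhere. Muc13, a membrane-bound mucin, was at 12.18, 12.48 and 12.76 in intestine, against 6.11 to 7.56 elsewhere. The ranges of intestine and the other tissues did not overlap for these genes.

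Ccl25, a chemokine that attracts lymphocytes carrying CCR9, was at 10.28, 11.61 and 11.78 in intestine, against 3.82 to 6.30 elsewhere. Ccl25 is also known as a chemokine of the thymus, and on arrays labelled thymus it averaged 4.59 ± 0.17 (SD, 6 kept arrays), below its testes mean of 6.01 ± 0.16 (SD, n = 6). What tissue those thymus arrays hold was not tested. Their matrix and endothelial marker lists had the highest medians of the 8 tissues. Their NK and T lymphocyte receptors were at 4.18 to 4.55, under lymph node at 5.06 to 6.02. As labelled, the differences were 7.34 ± 0.49 for Reg3b, 5.71 ± 0.41 for Lgals4, 4.85 ± 0.42 for Muc13 and 5.54 ± 0.35 for Ccl25 (SE, limma). Their adjusted p-values were 1.36e-18, 1.41e-17, 1.54e-14 and 3.07e-19 in that order. On the kept arrays the differences were 8.53 ± 0.10, 6.63 ± 0.10, 5.81 ± 0.08 and 6.36 ± 0.12 (SE). Animal 9099's array labelled intestine gave 4.46 for Reg3b, 6.43 for Lgals4, 6.26 for Muc13 and 5.24 for Ccl25. These 4 markers chose no array, but they were picked with results of these data known.

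**Figure D2:**
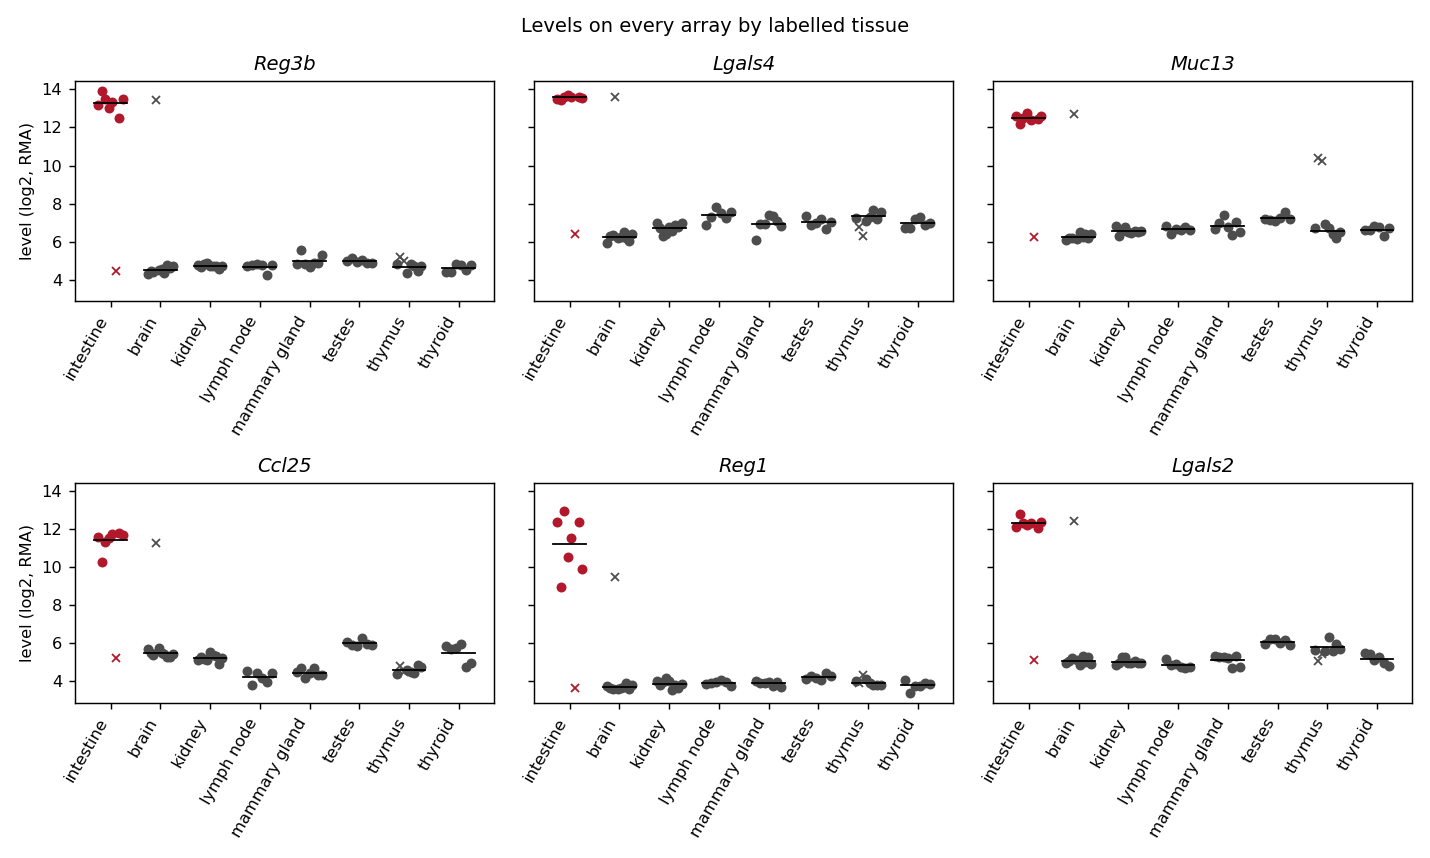
Log2 levels of 6 genes (panels) on every array, by labelled tissue on the x axis. Circles are arrays kept by the rule (red for intestine), crosses the 4 arrays left out, and bars the mean of the kept arrays, and for all 6 genes every kept intestine array lies above every kept array of the other tissues.

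The start regions of the 4 markers and of Lgals2 and Reg4, which shared their pattern, are printed below to show what their sequences hold. Each window runs from 250 bases before to 50 after a transcription start (RefSeq, GRCm38.p6), 5′ to 3′ on the strand of the gene. Matches to 4 short motifs of regulators known from gut epithelium are in capitals: TTTATG for CDX2, AGATAA for GATA factors, GTTAAT as a half-site of HNF1, and CAAAGTCCA for HNF4. Both strands were searched, so that CATAAA also counts for CDX2, TTATCT for GATA factors, ATTAAC for HNF1 and TGGACTTTG for HNF4. The windows are Reg3b at chr6:78370635-78370934 (plus strand), Lgals4 at chr7:28833544-28833843 (plus), Muc13 at chr16:33794239-33794538 (plus), Ccl25 at chr8:4349338-4349637 (plus), Lgals2 at chr15:78855480-78855779 (minus) and Reg4 at chr3:98221906-98222205 (plus). Where a gene had 2 windows (Muc13 and Ccl25), the one with more kinds of motif is shown, a choice that favours matches.
Reg3b: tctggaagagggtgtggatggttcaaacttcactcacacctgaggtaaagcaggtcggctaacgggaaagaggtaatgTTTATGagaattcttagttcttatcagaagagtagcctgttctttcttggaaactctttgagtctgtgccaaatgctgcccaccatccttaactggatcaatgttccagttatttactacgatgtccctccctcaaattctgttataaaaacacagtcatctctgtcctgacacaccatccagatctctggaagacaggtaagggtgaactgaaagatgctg
Lgals4: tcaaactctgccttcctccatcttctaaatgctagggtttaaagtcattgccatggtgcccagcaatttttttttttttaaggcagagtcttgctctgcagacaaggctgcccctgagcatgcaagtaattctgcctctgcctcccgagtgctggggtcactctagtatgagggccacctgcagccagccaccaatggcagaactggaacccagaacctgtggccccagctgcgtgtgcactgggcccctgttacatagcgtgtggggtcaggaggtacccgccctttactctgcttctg
Muc13: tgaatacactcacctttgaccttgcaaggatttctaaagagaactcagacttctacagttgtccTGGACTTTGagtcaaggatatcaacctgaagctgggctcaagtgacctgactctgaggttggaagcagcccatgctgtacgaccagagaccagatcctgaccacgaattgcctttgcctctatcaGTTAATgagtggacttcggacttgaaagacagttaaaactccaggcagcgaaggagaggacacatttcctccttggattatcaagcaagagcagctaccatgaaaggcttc
Ccl25: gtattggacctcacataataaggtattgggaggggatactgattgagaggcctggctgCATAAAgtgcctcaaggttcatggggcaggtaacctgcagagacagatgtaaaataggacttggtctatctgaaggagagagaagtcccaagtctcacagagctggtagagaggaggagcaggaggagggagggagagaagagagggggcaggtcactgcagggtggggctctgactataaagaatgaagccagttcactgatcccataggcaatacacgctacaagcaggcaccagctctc
Lgals2: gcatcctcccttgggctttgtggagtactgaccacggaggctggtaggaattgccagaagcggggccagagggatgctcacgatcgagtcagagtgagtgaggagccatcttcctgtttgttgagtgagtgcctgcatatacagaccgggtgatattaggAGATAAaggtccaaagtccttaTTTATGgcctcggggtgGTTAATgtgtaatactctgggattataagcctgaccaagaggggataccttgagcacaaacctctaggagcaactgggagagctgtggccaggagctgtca
Reg4: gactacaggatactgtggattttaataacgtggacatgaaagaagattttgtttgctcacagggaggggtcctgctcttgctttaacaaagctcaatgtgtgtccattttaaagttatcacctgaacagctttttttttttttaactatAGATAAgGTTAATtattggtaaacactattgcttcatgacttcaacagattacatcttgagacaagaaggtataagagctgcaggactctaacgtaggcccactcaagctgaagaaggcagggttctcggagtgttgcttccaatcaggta

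Reg3b held a CDX2-type match starting 172 bases before the start, and Ccl25 one at 192 bases before it on the other strand. Muc13 held an HNF1-type half-site 61 bases before its start and an HNF4-type match 186 bases before it. Lgals2 held 3 kinds of match between 90 and 51 bases before its start, and Reg4 held a GATA-type and an HNF1-type match 101 and 94 bases before it. Lgals4 had none of the 4 in its window, nor had Reg1 or the other window of Ccl25, and this says only that these letters are not there. The window of Reg1 and the 2 of Sult1b1, of which 1 held an HNF4-type match, are not printed. Of 44 genes called above every tissue, 39 had 51 windows in the table. A GATA-type match was in 12 of these windows (23.5%), in 9 genes, against 9.49% of 875 windows of array genes and 11.2% of 32851 windows of all genes. The CDX2-type motif was in 11.8% of the 51 windows, against 8.57% and 11.9%. The HNF1-type half-site was in 9.8%, against 4.57% and 7.1%, and the HNF4-type motif in 5.88%, or 3 windows, against 0.8% and 0.475%. A match is a string of letters, not a bound site, and no test was made of these shares.

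The list of secreted and epithelial gut lectins, which includes Lgals4, had a large median difference, under only that of 5 intestinal epithelium markers (6.63 on the kept arrays). Of 6 measured members of that list, 5 were called higher and none lower (median difference 6.12 on the kept arrays, against -0.16 over all genes). The remaining one, Reg3d, named after its value was seen, had a difference of 0.95 as labelled. Reg1, a secreted protein of regenerating gut and pancreas, was at 8.95, 11.55 and 12.98 in intestine (lowest, median and highest), against 3.40 to 4.44 elsewhere. The intestine arrays spread widely for Reg1, yet the lowest lay above every other array. Reg4, a further family member, was at 8.95, 9.98 and 10.23 in intestine, against 3.77 to 4.74 elsewhere, and its labelled difference was 4.84 ± 0.32 (SE, limma, adjusted p = 1.36e-18). Clec2h, a C-type lectin-like receptor outside that list, was at 8.18, 8.44 and 10.04 in intestine, against 2.73 to 5.0 elsewhere, and rose by 4.74 ± 0.33 (SE). The probe sets of Reg3b and Reg1 carry a suffix for probes shared with other transcripts, so related genes may add to them.

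Galectins, which bind galactose-ended chains, went both ways: 4 of 9 (44.4%) were called higher and 1 (11.1%) lower (median 0.59). Over all genes the shares were 11.7% and 7.26%. Lgals2 was at 12.07, 12.34 and 12.80 in intestine, against 4.72 to 6.34 elsewhere, without overlap. Lgals9 had a labelled difference of 2.96 ± 0.35 (SE) and was called above every tissue, while Lgals3 (1.88 ± 0.29, SE) was not called above mammary gland, at 11.22 ± 0.37 in intestine and 10.26 ± 0.56 in mammary gland (SD, n = 7 each). Lgals1, a galectin of connective tissue and muscle, fell by 1.43 ± 0.21 (SE, limma, adjusted p = 8.73e-08), with 9.75 ± 0.65 in intestine against 12.80 ± 0.44 in mammary gland (SD).

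Of 22 mucins and mucin-like proteins listed, 11 had a named probe set, so the list does not describe mucins as a whole. Muc13 was the only 1 of these 11 called higher, and Glycam1 and Cd34 were called lower (median -0.31). These are shares of 9.09% and 18.2%, against 11.7% and 7.26% over all genes. The difference of Glycam1 on the kept arrays, -0.81, was within the limit of 1. It is a ligand of L-selectin on lymph node venules, and was at 3.32 to 5.09 in intestine, against 11.72 ± 0.84 in lymph node (SD, n = 6), and lymph node sets its difference. Dmbt1, a mucosal scavenger receptor glycoprotein, was at 10.82, 11.46 and 11.92 in intestine. It was at 3.51 to 9.19 elsewhere, with the highest arrays in mammary gland, where Prol1, not used to choose mammary arrays, also spread over 2.52 to 12.47. Cdhr5, a protocadherin of the brush border, was at 11.30 to 11.72 on 6 intestine arrays and at 6.35 on that of C57 mouse GDWTM3, against 9.49 ± 0.13 in kidney (SD, n = 9).

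**Figure D3:**
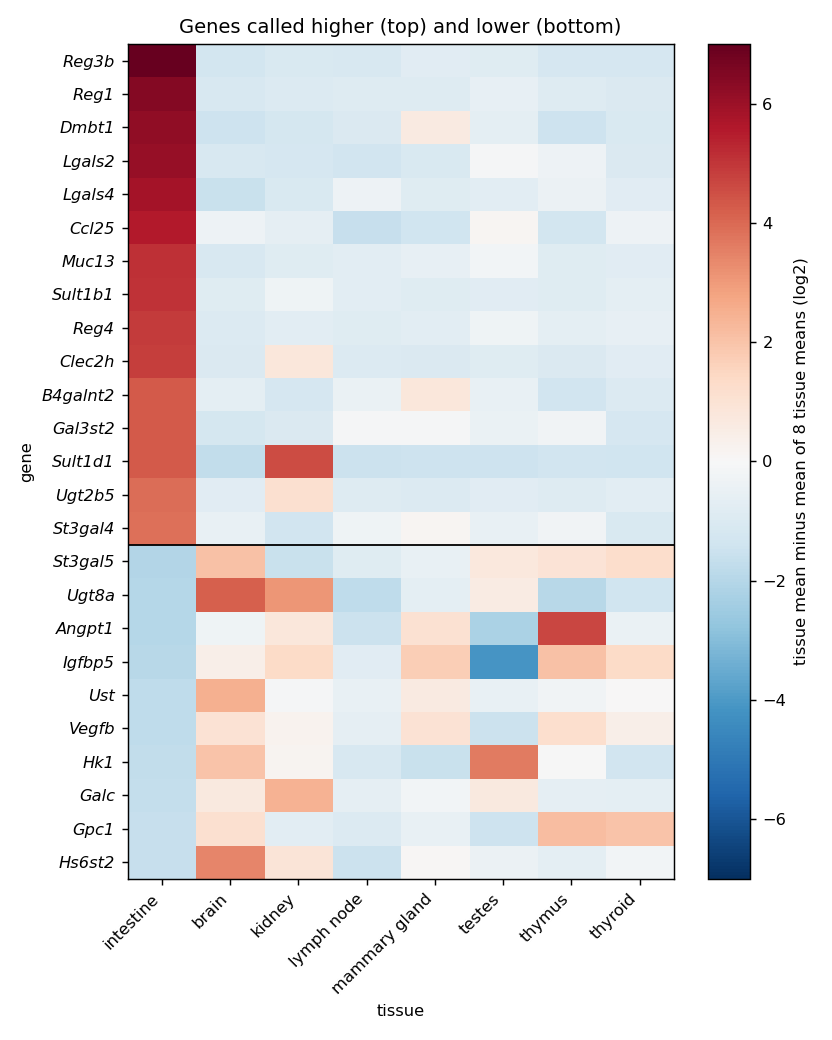
Mean log2 level of each tissue minus the mean of the 8 tissue means, on the kept arrays, for the 15 genes called higher (above the line) and the 10 called lower (below it) with the largest differences. Red is above and blue below the mean of the tissues, and intestine alone is deep red for most genes of the upper block, with kidney also red for Sult1d1.

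Enzymes that start and extend O-linked chains were in part higher in intestine. Of 19 polypeptide GalNAc transferases, 5 were called higher (26.3%) and 1 lower (5.26%, median -0.06), against 11.7% and 7.26% over all genes. Galnt6 was at 9.77, 9.96 and 10.46 in intestine, against 5.32 to 8.62 elsewhere, with a labelled difference of 3.19 ± 0.22 (SE, limma, adjusted p = 4.6e-18). Galnt4 (2.35 ± 0.27, SE) was also called above every tissue, while Galnt12 and Galnt10 rose by 1.93 ± 0.28 and 1.38 ± 0.26 over the mean of tissues but not over all of them. Galntl5, the one called lower, was at 3.07 to 3.46 in intestine against 11.70 ± 0.27 in testes (SD, n = 6), and its intestine level lay close to that of brain, at 3.30 ± 0.10 (SD, n = 9).

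Of 12 core and extension enzymes, 5 were called higher (41.7%) and 1 lower (8.33%, median 0.76). B3gnt3, which extends core 1 chains, was at 7.08, 8.37 and 8.55 in intestine, against 4.30 to 5.34 elsewhere. Gcnt3, the core 2 and core 4 branching enzyme of mucin-making tissue, was at 6.17, 6.75 and 7.88 in intestine, against 2.71 to 5.11 elsewhere. Both ranges were free of overlap, and a second probe set of Gcnt3 was also called higher. C1galt1c1, the chaperone of core 1 synthase, rose by 1.27 ± 0.14 (SE, limma, adjusted p = 1.67e-11). Gcnt2, which branches poly-lactosamine chains, rose by 1.75 ± 0.24 (SE) and was close to kidney, at 7.34 ± 0.49 in intestine and 7.28 ± 0.29 in kidney (SD, n = 7 and 9). Gcnt1, the core 2 enzyme of leukocytes, fell by 1.37 ± 0.23 (SE), although a second probe set of it, at -0.48, was not called.

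Of 6 alpha-2,3-sialyltransferases, 1 was called higher and 3 lower (median -0.69). St3gal4, which caps galactose on glycoproteins, was at 10.58, 10.83 and 11.77 in intestine, against 5.31 to 9.08 elsewhere, and rose by 3.79 ± 0.32 (SE, limma, adjusted p = 4.88e-15). St3gal5, which makes the ganglioside GM3, was at 5.87, 6.16 and 6.59 in intestine, against 6.48 to 10.55 elsewhere, and fell by 1.80 ± 0.25 (SE, adjusted p = 1.14e-08). St3gal3 and St3gal2 fell by 1.0 ± 0.20 and 1.05 ± 0.22 (SE), and both lay close to testes. None of 7 alpha-2,6-sialyltransferases was called as labelled, the smallest p being that of St6gal1 (-0.94 ± 0.22, SE, adjusted p = 0.000277), and 1 of 6 alpha-2,8-sialyltransferases, St8sia1, fell (-1.11 ± 0.27, SE). The fit on the kept arrays called 1 of the 7 higher and 1 lower, counts that follow from the choice of arrays. The difference of St6galnac2 was 0.55 as labelled and 1.07 on the kept arrays.

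St6galnac2, the gene targeted in the knockout line, was at 8.65 and 8.74 on the arrays labelled knockout, against 8.74 and 8.77 on the kept wild-type intestine arrays of the line and 8.68 to 9.94 in C57 mice. The arrays labelled knockout were thus not low for this probe set, whose place relative to the deletion is not given, so that it does not check the labels.

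Of 10 fucosyltransferases, 3 were called: Fut4 and Fut8 higher and Fut9, which chose the arrays, lower (median -0.13). Fut4, which makes Lewis X structures, was at 6.81, 7.42 and 8.14 in intestine, against 4.43 to 6.88 elsewhere, overlapping with lymph node alone, and its other 2 probe sets were called higher as well. Fut8, which adds core fucose to N-linked chains, rose by 1.05 ± 0.14 (SE) and was close to testes, at 9.09 ± 0.45 in intestine and 8.97 ± 0.17 in testes (SD).

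Of 21 enzymes that add terminal galactose or GalNAc, 6 were called higher (28.6%) and none lower (median 0.05). B4galnt2, which makes the Sda antigen, rose by 4.27 ± 0.51 (SE, limma, adjusted p = 3.74e-10). B4galnt1, which makes the gangliosides GM2 and GD2, was at 8.60, 9.80 and 10.18 in intestine, against 4.73 to 9.53 elsewhere, and rose by 2.44 ± 0.34 (SE) without being called above lymph node. Both genes are targeted in the double knockout line, which gives 18 arrays of the other tissues. In kidney the double knockout and wild-type arrays were close. B4galnt2 averaged 3.85 ± 0.20 in double knockout mice (SD, n = 5) and 3.83 ± 0.20 in their wild type (SD, n = 4). B4galnt1 averaged 5.63 ± 0.31 and 5.64 ± 0.21 there. Both B4galnt2 means lay under 4.21, the 25th percentile of all values, so a loss could hardly show. In mammary gland B4galnt1 averaged 6.67 and 6.02 and B4galnt2 5.73 and 6.01, and in testes 6.98 and 7.30, and 4.58 and 4.43. Thymus arrays as labelled were lower in double knockout mice, at 4.98 against 7.54 for B4galnt1 and 3.67 against 5.30 for B4galnt2. Their wild type there includes the thymus arrays left out. These probe sets thus do not check the labels either, and their place relative to the deletions is not given. The spread of B4galnt2 within intestine is described further down. B4galt4 rose by 1.88 ± 0.15 (SE), and its lowest intestine array, at 8.13, lay above the highest other array, at 7.92.

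Glycolipid enzymes moved in opposite directions, with 6 of 17 called higher (35.3%) and 4 lower (23.5%, median -0.05). Ugcg, which makes glucosylceramide, rose by 2.09 ± 0.17 (SE, limma, adjusted p = 1.02e-15). The lactosylceramide synthases B4galt5 and B4galt6 rose by 1.63 ± 0.17 and 2.52 ± 0.16 (SE), and B4galt6 was close to brain, at 8.77 ± 0.36 in intestine and 9.11 ± 0.26 in brain (SD). Gal3st1, which makes sulfatide, was at 8.09, 8.65 and 8.87 in intestine, against 5.41 to 8.59 elsewhere. Ugt8a, which makes galactosylceramide in myelin, was at 2.86 to 3.15 in intestine, against 9.24 ± 0.57 in brain (SD, n = 9), and fell by 1.54 ± 0.44 (SE, adjusted p = 0.00229). Galc, the lysosomal enzyme that breaks galactosylceramide down, fell by 1.71 ± 0.30 (SE), and St8sia1, listed here too, makes the ganglioside GD3.

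**Figure D4:**
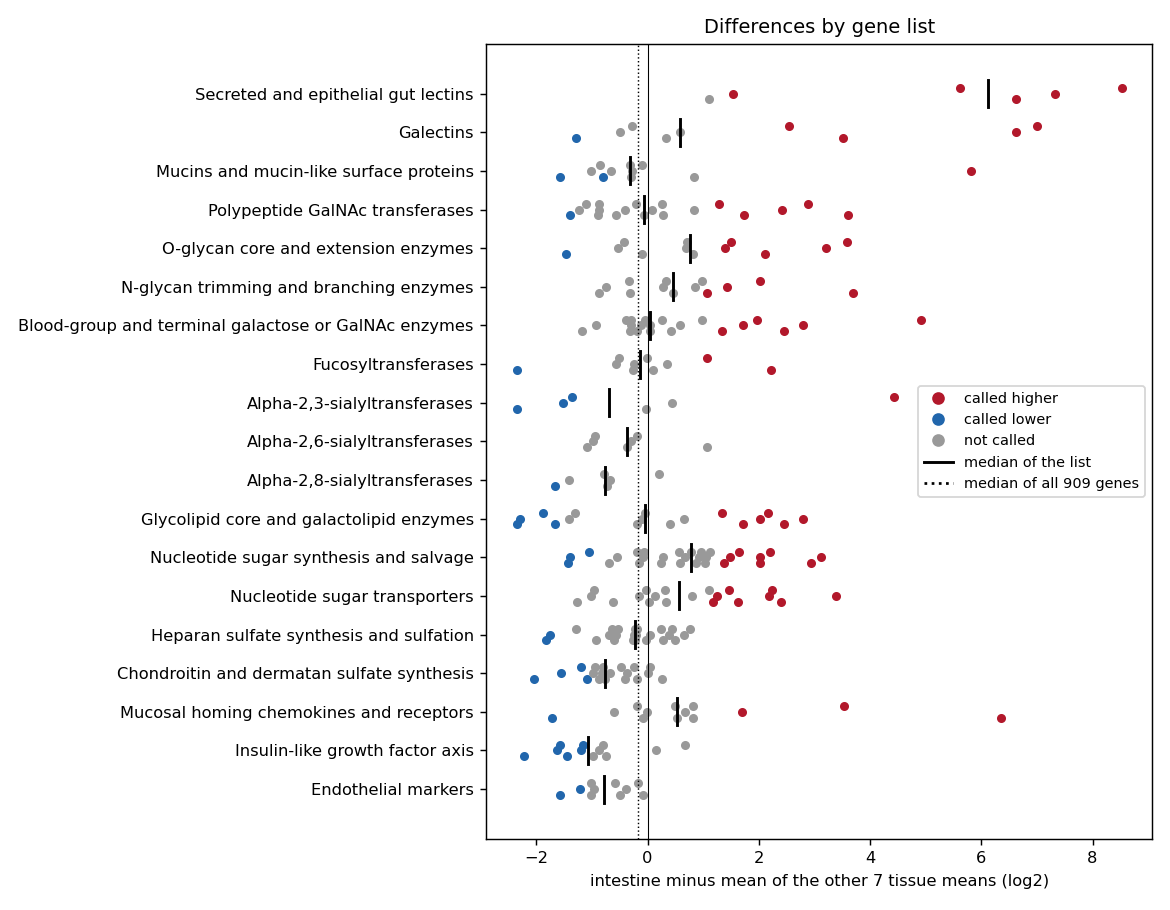
Each point is a gene of 1 of 19 lists, placed by its intestine mean minus the mean of the other 7 tissue means on the kept arrays (log2). Colours give the call on the labelled arrays, thick bars the list medians and the dotted line the median of all 909 genes, and gut lectins have the rightmost median while the insulin-like growth factor axis has the leftmost.

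Genes listed for the supply of sugar donors were in part called higher in intestine, as RNA, and the supply itself was not measured. Of 20 genes listed as nucleotide sugar transporters, 8 were called higher (40.0%) and none lower (median 0.57). What each member carries was not tested. Slc35c1, which carries GDP-fucose into the Golgi, was at 8.65, 9.90 and 10.20 in intestine, against 6.18 to 8.82 elsewhere, and rose by 2.03 ± 0.22 (SE, limma, adjusted p = 2.41e-11). Slc35c2 and Slc35f2 rose by 1.98 ± 0.16 and 2.89 ± 0.23 (SE), and neither overlapped with other tissues. Slc35a3, a transporter of UDP-GlcNAc, rose by 1.84 ± 0.21 (SE) and was close to kidney, at 7.07 ± 0.83 in intestine and 7.05 ± 0.30 in kidney (SD).

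Of 29 genes of nucleotide sugar synthesis and salvage, 8 were called higher (27.6%) and 3 lower (10.3%, median 0.79). Gmds, the first step of new GDP-fucose synthesis, was at 9.34, 10.16 and 10.40 in intestine, against 5.71 to 8.93 elsewhere, and rose by 2.62 ± 0.28 (SE). Uap1l1, a relative of UDP-GlcNAc pyrophosphorylase, rose by 1.69 ± 0.16, and the intestine mean of 9.93 ± 0.16 lay close to the kidney mean of 9.71 ± 0.15 (SD). Ugdh, which makes UDP-glucuronic acid, rose by 1.94 ± 0.22, and Papss2, which makes the sulfate donor, by 2.49 ± 0.36 (SE), the second close to kidney. Cmah, which hydroxylates CMP-sialic acid, fell by 1.46 ± 0.14 (SE, limma, adjusted p = 4.73e-13), with 4.34 to 5.54 in intestine against 8.35 ± 0.76 in lymph node (SD). Gfpt2, of hexosamine synthesis, and Renbp, an epimerase of GlcNAc, fell by 1.36 ± 0.13 and 1.01 ± 0.10 (SE).

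Among sulfotransferases, Gal3st2, a galactose 3-O-sulfotransferase, was at 9.32, 9.98 and 11.45 in intestine, against 4.35 to 7.80 elsewhere, and rose by 4.11 ± 0.38 (SE, limma, adjusted p = 7.12e-14). With Gal3st1 and Chst4, it makes 3 of 12 carbohydrate sulfotransferases called higher, while Chst1 and Chst7 were called lower (median -0.36). No gene of heparan sulfate synthesis was called higher among 24, and Hs6st2 and Sulf1 were called lower (median -0.22). The share called lower there, 8.33%, was near the 7.26% over all genes. No gene of chondroitin and dermatan sulfate synthesis was called higher among 19, and 4 were called lower (21.1%, median -0.77). Over all genes 11.7% were called higher. Ust, which sulfates iduronic acid in dermatan sulfate, was at 6.15, 6.43 and 7.17 in intestine, against 7.63 to 11.99 elsewhere, with no overlap. It fell by 1.42 ± 0.29 (SE, adjusted p = 2.64e-05) as labelled, and its second probe set was called lower too. Csgalnact1 and Dsel, also of that pathway, fell by 1.25 ± 0.20 and 1.03 ± 0.20 (SE).

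Among 10 syndecans and glypicans, Sdc1, an epithelial syndecan, rose by 1.53 ± 0.21 and Gpc1, a glypican of neurons and muscle, fell by 1.37 ± 0.33 (SE). Of 13 enzymes that trim and branch N-linked chains, 4 were called higher (30.8%) and none lower (median 0.46). Mgat3, which adds the bisecting GlcNAc, had a difference of 1.49 ± 0.08 (SE, limma, adjusted p = 1.09e-22) and was close to brain, at 6.93 ± 0.18 in intestine and 7.21 ± 0.22 in brain (SD). Mgat4a, which starts a branch of these chains, rose by 1.65 ± 0.19 (SE) but lay close to testes, at 6.83 ± 0.54 in intestine and 7.0 ± 0.23 in testes (SD). Among 25 lysosomal enzymes of glycan breakdown, the sialidase Neu1 was called higher, and Galc, Gm2a and Neu2 lower. Gm2a, an activator protein of ganglioside breakdown, fell by 1.36 ± 0.11 (SE, adjusted p = 6.05e-16).

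Conjugating enzymes of the cytosol and endoplasmic reticulum were high for single members. Sult1b1, a sulfotransferase of phenols and thyroid hormone, was at 7.38, 8.54 and 9.24 in intestine, against 2.49 to 3.28 elsewhere, and rose by 4.97 ± 0.33 (SE, limma, adjusted p = 1.39e-18). Sult1d1 rose by 4.11 ± 0.33 (SE), but kidney, at 8.94 ± 0.30, was above intestine, at 8.66 ± 0.40 (SD). Sult1a1 and Sult1e1 fell by 1.68 ± 0.20 and 1.21 ± 0.42 (SE), so that 2 of 6 cytosolic sulfotransferases rose and 2 fell. Of 5 glucuronosyltransferases, Ugt2b5 and Ugt1a6b were called higher, and Ugt1a6b averaged 10.74 ± 0.57 in intestine and 11.40 ± 0.56 in kidney (SD). Probes of Ugt1a6b and Ugt2b5 are shared with close relatives.

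Of 13 mucosal chemokines and receptors, Ccl25, Ccl20 and Cx3cl1 were called higher (23.1%) and Ccl27a lower (7.69%, median 0.54). Ccl20, which attracts cells carrying CCR6, was at 5.48, 6.59 and 8.79 in intestine, against 2.79 to 4.24 elsewhere. Cx3cl1 rose over the mean of tissues (1.69 ± 0.26, SE) but lay below brain, at 9.03 ± 0.83 in intestine against 10.88 ± 1.27 in brain (SD). Of 7 chemokines and receptors of lymph node homing, none was called higher, and Cxcl12, a chemokine of stromal cells, was called lower as labelled (-1.05 ± 0.19, SE). On the kept arrays its difference was -0.95, within the limit of 1. Of 66 interleukins and receptors, 6 were called higher (9.09%) and 2 lower (3.03%, median -0.14), shares under the 11.7% and 7.26% over all genes. Il18, an epithelial cytokine, was at 9.52, 10.41 and 11.15 in intestine, against 5.48 to 8.67 elsewhere. Il1rl1, the receptor of IL-33, rose by 1.52 ± 0.15 (SE), while its second probe set, at -0.24, was not called. Il17rc, a subunit of the IL-17 receptor, and Il13ra1 rose by 1.81 ± 0.22 and 2.34 ± 0.29 (SE), and Il17d and Il6st fell by 1.02 ± 0.13 and 1.02 ± 0.22.

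Ligands and receptors of signalling between cells were called at shares under those over all genes (11.7% higher, 7.26% lower), at 5.0% and 2.5% in the Notch and Wnt list, 8.33% and 2.78% in the TGF-beta and BMP list and 9.09% and 4.55% in the FGF, VEGF, PDGF and EGF list. Fzd5, a Wnt receptor, was at 8.92, 9.63 and 10.65 in intestine, against 4.43 to 7.56 elsewhere, and Dll1, a Notch ligand, was at 7.51, 7.89 and 8.88, against 4.93 to 7.34. These were 2 of 40 Notch and Wnt genes called higher, with Notch2 called lower (-1.66 ± 0.21, SE, limma, adjusted p = 1.31e-09). Of 36 genes of TGF-beta and BMP signalling, Bmp2, Bmp3 and Bmp8a rose by 2.31 ± 0.23, 2.15 ± 0.27 and 2.42 ± 0.19 (SE), and Tgfbr3 fell by 1.20 ± 0.21. Of 44 genes of the FGF, VEGF, PDGF and EGF systems, 4 were called higher and 2 lower (median -0.19). Among them Hbegf and Areg, ligands of the EGF receptor, rose by 1.55 ± 0.12 and 2.40 ± 0.48 (SE), and Vegfb and Fgf13 fell by 1.63 ± 0.22 and 1.10 ± 0.42.

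In the insulin-like growth factor axis none of 12 genes was called higher and 6 were called lower (median -1.07, against -0.16 over all genes). Igf1r, the receptor, was at 5.39, 5.95 and 6.74 in intestine, against 6.24 to 9.45 elsewhere. It fell by 1.32 ± 0.18 (SE, limma, adjusted p = 6.62e-09). The binding proteins Igfbp5 and Igfbp7 fell by 1.86 ± 0.27 and 1.30 ± 0.17, and the ligand Igf1 by 1.37 ± 0.30 (SE). For Igfbp5, testes lay lower than intestine, at 7.79 ± 0.72 in intestine and 5.58 ± 0.40 in testes (SD).

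Other genes among the largest falls had their highest level in 1 tissue each. Angpt1, a ligand of the endothelial receptor Tie2, was at 3.35, 3.69 and 3.95 in intestine, against 10.32 ± 0.28 on the kept arrays labelled thymus (SD, n = 6). Hk1, a hexokinase, was at 5.07, 6.18 and 6.25 in intestine, against 11.32 ± 0.30 in testes (SD, n = 6).

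Lists of markers of other cell types are given with the labelled tissue where each was highest. Their shares of calls stand beside 11.7% higher and 7.26% lower over all genes. None of 17 NK and T lymphocyte receptors and none of 5 B lymphocyte markers was called, the smallest p belonging to Klra7 (-0.62 ± 0.08) and Siglecg (-0.52 ± 0.13, SE). Their mean log2 level per array lay between 4.07 and 4.90 and between 4.97 and 5.91 in intestine, against 5.06 to 6.02 and 7.12 to 9.68 in lymph node. Of 10 endothelial markers, Cd34 and Icam2 were called lower, and the list lay between 5.71 and 6.71 in intestine, against 7.97 to 8.41 in thymus. Of 8 matrix genes of connective tissue, Dcn, a collagen-binding proteoglycan, was called lower as labelled, but its difference on the kept arrays, -0.89, was within the limit of 1. The list lay between 7.07 and 7.81 in intestine, against 9.51 to 10.07 in thymus. Of 22 myeloid lectins, Ly75 and Clec4n were called higher (9.09%) and 5 lower (22.7%), among them Clec10a (-1.85 ± 0.18), Mrc1 (-1.51 ± 0.18), Cd209d (-1.64 ± 0.20) and Clec4a3 (-1.10 ± 0.18, SE). All 4 were highest in mammary gland, and Clec4a3 differed by -0.9978 on the kept arrays, just within the limit of 1. Not every tissue lay above intestine: in brain the NK and T lymphocyte, B lymphocyte and matrix lists lay at 3.64 to 3.88, 4.31 to 4.71 and 6.41 to 7.02, below every intestine array. Below every intestine array too were kidney for NK and T lymphocyte receptors, at 3.84 to 4.05, and testes for matrix genes, at 6.66 to 6.76. So were brain and kidney for myeloid lectins, at 4.06 to 4.36 and 4.42 to 4.55, with the lowest intestine array at 4.61. Siglecf, a marker of eosinophils, was the only 1 of 9 sialic acid receptors called higher, at 3.54 to 5.17 in intestine against 2.79 to 3.78 elsewhere.

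Of 7 markers of pancreas and liver, Reg1, Reg2 and Mbl2 were called higher and none lower (median -0.03), and the list's mean lay between 5.14 and 6.41 in intestine, against 3.84 to 5.18 in the other tissues. Their part in the intestine values was not tested. Of 10 neural genes, Ugt8a was called lower, as was Fut9, which chose the arrays. Without Fut9 the list lay between 4.48 and 5.05 in intestine, against 8.29 to 8.78 in brain. Chga, of endocrine cells, rose by 1.97 ± 0.40 (SE, limma, adjusted p = 3.27e-05), and lay below thyroid and brain. It was the only 1 measured of 10 listed markers of endocrine cells and secretory granules.

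Genes were also ranked by how far their 8 tissue means followed those of Reg3b on the kept arrays. Closest were Reg1 (Pearson r = 0.999), Reg4 (0.997), Muc13 (0.996), Sult1b1 (0.994), Hes2 (0.992), B3gnt3 (0.989), Lgals4 (0.989), Lgals2 (0.988), Ccl20 (0.983) and Csf2 (0.981). Each r rests on 8 points, of which intestine is far from the rest, and describes only that one high tissue. Hes2, a repressor of the Hes family, was at 7.19, 7.78 and 8.32 in intestine, against 3.93 to 4.81 elsewhere. Csf2, a growth factor of myeloid cells, was at 4.08, 4.59 and 5.22 in intestine, against 3.18 to 3.82 elsewhere, and was not called, with a labelled difference of 0.89 ± 0.10 (SE).

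The SD over the 7 intestine arrays had a median of 0.31 over 909 genes, dim ones included, and it was above 1 for 19. Over genes centred on the average of their tissues, the array of C57 mouse GDWTM3 correlated at 0.77 to 0.87 with the other 6. Arrays of the St6galnac2 line correlated at 0.93 to 0.97 among themselves. The widest spread belonged to B4galnt2, at 7.29 and 7.40 on the arrays labelled knockout and 7.38 and 7.82 on the wild-type arrays of the St6galnac2 line, against 11.35, 11.53 and 12.43 in C57 mice. All 4 arrays of the St6galnac2 line lay below all 3 of C57, and mammary gland arrays reached 8.53, above the St6galnac2 line. Animal 9099's array labelled intestine gave 4.93. The difference of the St6galnac2 line from C57 was -4.80 ± 0.66 (SE, limma, adjusted p = 0.0778) as labelled and -4.29 ± 0.27 (SE) on the kept arrays.

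**Figure D5:**
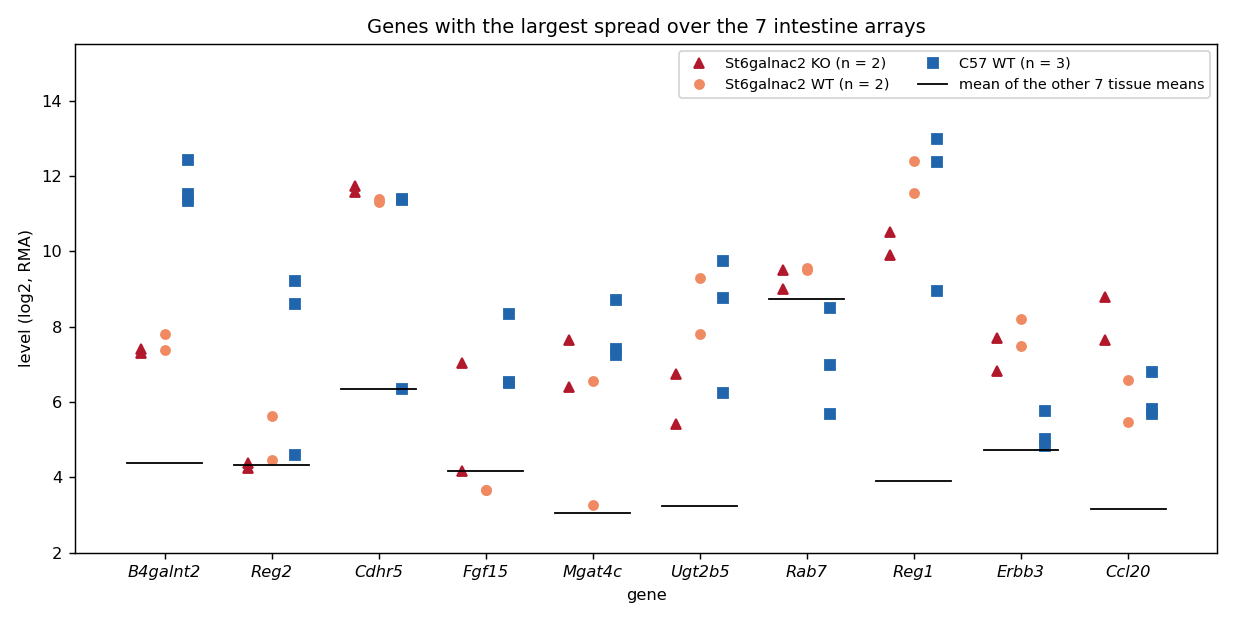
Log2 level on each kept intestine array (triangles and circles: St6galnac2 line, squares: C57) of the 10 genes with the largest SD over these arrays, with the mean of the other 7 tissue means as a line. B4galnt2 splits by line, as do Erbb3 and Rab7 in the opposite direction. Cdhr5 has a single low C57 array and Mgat4c a single low St6galnac2 wild-type array.

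Some other variable genes did not split by line, while Erbb3 and Rab7 split with the St6galnac2 line above C57 mice. Reg2 was at 4.26 and 4.37 on the arrays labelled knockout and 4.47 and 5.64 on wild-type arrays of the line, against 4.61, 8.59 and 9.22 in C57 mice, so 1 C57 array lay with the St6galnac2 line. Fgf15, a hormone of the ileum that curbs bile acid synthesis in the liver, was at 4.16 and 7.04 on the arrays labelled knockout and 3.66 on both wild-type arrays of the line, against 6.51, 6.52 and 8.33 in C57 mice. Which segment each piece of intestine came from is not labelled. Mgat4c, a GlcNAc transferase of N-linked chains, was at 3.26 on the array of wild-type mouse 9094 and between 6.41 and 8.71 on the other 6. Erbb3, a receptor of the EGF family, was at 6.81 to 8.19 in the St6galnac2 line against 4.82 to 5.76 in C57 mice, and Rab7, a GTPase of late endosomes, at 9.01 to 9.55 against 5.69 to 8.51.

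Between lines, the intestine of the St6galnac2 line and the small intestine of C57 mice gave no call as labelled (0 of 963, 0%, in limma, with 187 at an unadjusted p under 0.05). With animal 9099's array left out, 8 probe sets (0.831%) were higher and 110 (11.4%) lower in the St6galnac2 line. That array is chosen by its value, so these counts support nothing on their own. Array medians moved with them, at 5.30 to 5.34 on the kept arrays of the St6galnac2 line and 5.43 to 5.76 in C57 mice, and so did the mean level of marker lists. The list levels are to be read beside the median difference over all 963 probe sets, -0.27 on the kept arrays (St6galnac2 line minus C57). B lymphocyte markers were at 4.97 to 5.03 in the St6galnac2 line and 5.42 to 5.91 in C57 mice, NK and T lymphocyte receptors at 4.07 to 4.23 and 4.41 to 4.90, and endothelial markers at 5.71 to 6.01 and 6.23 to 6.71. Myeloid lectins were at 4.61 to 4.74 in the St6galnac2 line and 4.79 to 5.04 in C57 mice, sialic acid receptors at 4.71 to 4.84 and 4.97 to 5.49, lymph node homing genes at 6.10 to 6.33 and 6.59 to 7.22, and neural genes without Fut9 at 4.48 to 4.66 and 4.70 to 5.05. Ranges overlapped for matrix genes (7.07 to 7.49 and 7.45 to 7.81), pancreas and liver markers (5.14 to 5.71 and 5.34 to 6.41) and intestinal epithelium markers (12.47 to 12.74 and 12.52 to 12.66). Their part in the counts was not tested. Line, the word used for the tissue and any difference in handling cannot be told apart here. Arrays labelled knockout and wild type within the St6galnac2 line gave no call as labelled (0 of 963, 0%, in limma, 6 at an unadjusted p under 0.05) or on the kept arrays (0, with 58).

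The difference between intestine and brain was compared between the lines, since both have both tissues. Of 963 probe sets, 1 was called (0.104%), that of B4galnt2: the difference in the St6galnac2 line minus that in C57 mice was -6.13 ± 0.77 on the log2 scale (SE, limma, adjusted p = 0.000976). On the kept arrays the estimate was -5.43 ± 0.33 (SE).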

How the data were processed

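Total RNA of 8 tissues was hybridised to 60 custom Affymetrix arrays. The deposited log2 values were made by the authors with RMA, per the submitters' processing notes, whose version is not stated. Whether all arrays were normalised together is not given in the sources used here. They were used unchanged, and the number of arrays limits their precision. Probe sets were matched by accession to RefSeq: 963 of 1246 have a gene symbol, for 909 genes, and 283 are unnamed. A gene with several probe sets (48 genes) was shown by its brightest one over all arrays, and 217 named probe sets carry a suffix for shared probes.

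Replicates are mice, and the p-values measure the spread between these samples. In the fit as labelled that spread also holds the 4 arrays that the rule left out and pooled differences between lines. Kidney, mammary gland, testes and thymus came from the B4galnt1 and B4galnt2 line alone, so tissue and line cannot be told apart there. limma 3.58.1 in R 4.3.3 was fitted to all named probe sets with 8 tissue means, lines and genotypes pooled and the 2 brain arrays of animal 9099 averaged, and was first tested on simulated data. Further fits compared the intestine arrays by line and genotype. Figures and counts were made in Python 3.11.15 with pandas 2.3.3 and matplotlib 3.10.9. The genes named were the genes that chose the arrays, the markers, the largest differences and gaps, list members with the smallest adjusted p, and the most variable or most like Reg3b. Members and lists were chosen with earlier results of these data known.

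The same mice gave intestine and other tissues. Deviations were taken from the mean of each group of line, genotype and tissue. Those of an animal's intestine array correlated with those of its other arrays at a median of -0.02 (19 pairs, -0.97 to 0.91 as labelled, and 15 pairs, -0.16 to 0.09, on the kept arrays). Intestine groups held 2 or 3 arrays, and deviations in a group of 2 mirror each other, so the pairs are not independent. Alternatives used other arrays, groups, scalings and filters, and a random block for animal.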

Additional observations from a re-analysis of the deposited data

Results flagged for a closer look

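In 25 of 123 genes named, 1 of the 7 kept intestine arrays lay far from the other 6 by Dixon's test at the 95% level, which chance meets in about 1 of 20 groups, and genes of 1 array are not independent. The far array was that of C57 mouse GDWTM3 in 17 genes and that of C57 mouse GDWTF2 in 6. GDWTM3 also had the highest array median of the kept intestine arrays, at 5.76.

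On the array of GDWTM3, 8 of these genes were low: Cdhr5 of the brush border was at 6.35 (11.30 to 11.72 on the other 6), the IL-17 receptor subunit Il17rc at 6.37 (8.68 to 9.77), the endocrine gene Chga at 7.34 (8.75 to 9.33) and the core 1 extension enzyme B3gnt3 at 7.08 (8.08 to 8.55). Lgals9 at 9.19 (10.84 to 11.87), the GDP-fucose transporter Slc35c1 at 8.65 (9.65 to 10.20), the chemokine Cx3cl1 at 7.30 (8.80 to 9.79) and the hexokinase Hk1 at 5.07 (5.87 to 6.25) were low there as well. The same array was high for Gal3st2 at 11.45 (9.32 to 10.15), Clec2h at 10.04 (8.18 to 8.80), B4galt4 at 9.54 (8.13 to 8.64) and the ceramide enzyme Ugcg at 10.23 (9.30 to 9.66). It was also high for the sulfotransferase Chst4 at 8.37 (6.92 to 7.55), Galc at 7.30 (5.33 to 6.11), Dsel at 5.80 (4.49 to 4.96), Cmah at 5.54 (4.34 to 4.85) and the lectin Clec4n at 7.74 (6.34 to 6.90).

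On the array of GDWTF2, Ccl25 was low at 10.28 (11.34 to 11.78 on the other 6), as were Reg4 at 8.95 (9.81 to 10.23) and Mgat4a at 5.66 (6.87 to 7.28). Lgals2 was high there at 12.80 (12.07 to 12.35), as were Chst1 at 6.92 (5.81 to 6.27) and Igfbp7 at 11.09 (9.66 to 10.13). In the St6galnac2 line, Mgat4c was at 3.26 on the array of wild-type mouse 9094 (6.41 to 8.71 on the other 6), and the heparan sulfate enzyme Hs6st2 was at 2.70 on that of wild-type mouse 9362 (3.20 to 3.47).

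The intestine to brain difference of B4galnt2, the Sda enzyme, differed between lines by -6.13 (St6galnac2 line minus C57, limma, adjusted p = 0.000976). In the St6galnac2 line the labelled intestine and brain arrays averaged 6.97 and 5.07, and in C57 mice 11.77 and 3.57. On the kept arrays of the St6galnac2 line the means were 7.47 and 4.71.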

How the results depend on the processing

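Of the counts of 111 higher and 73 lower probe sets, 48 above every tissue and 0 below, none moved by over 1.5 times with 18 groups of line and genotype, centred arrays, a second quantile normalisation, unnamed probe sets added or dim ones left out. With animal as a random block, so that tissues of 1 mouse were paired, the counts were 111, 73, 48 and 0, that of the line-by-tissue comparison was 1, and no call of a named gene changed. The median difference over probe sets was -0.17, and -0.11 after centring. The kept arrays gave 133 higher, 103 lower, 58 above and 1 below every tissue, and 16 differed in the line-by-tissue comparison. Leaving out 1 intestine array gave 103 to 130 higher, 55 to 99 lower, 46 to 58 above and 0 to 1 below, the upper ends without animal 9099. On the kept arrays, 45 probe sets lay above all other arrays (45 to 50 with 1 array left out, 0 as labelled), and 1 below (1 to 4, the 4 without GDWTM3 and 2 without GDWTF2, 5 with centred arrays, 0 as labelled). The line comparison gave 0 to 118 calls, 118 being both without animal 9099 and on the kept arrays, and 1 without GDWTF2. The genotype comparison gave 0 in each such fit. Alternatives added after seeing the data gave 21 above every tissue in wild-type arrays as labelled, 53 in kept wild-type arrays, and 119 lower and 2 below on the kept arrays without GDWTM3. Within C57, where brain is the other tissue, 165 were lower.

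Of 121 named genes tested, none turned its direction in these fits outside C57. Within C57, against brain, 21 did. Lgals1 (0.94), Glycam1 (0.94), Galntl5 (0.042), Gcnt1 (0.28), Cxcl12 (0.42), Sult1e1 (0.11), Cmah (0.65), Renbp (0.16), Dcn (1.91), Clec10a (0.36), Mrc1 (0.99), Cd209d (0.0417), Clec4a3 (1.13), Icam2 (0.14), Tgfbr3 (0.16), Igfbp7 (1.19) and Notch2 (0.31) were above brain, and B4galt6 (-0.72), Mgat3 (-0.47), Cx3cl1 (-2.83) and Chga (-1.96) below it. In these fits the other tissues were left out by construction.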
